A study of Mus musculus with 12 samples.

Results

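PPARγ is a nuclear receptor that pairs with a retinoid X receptor on DNA, binds fatty acids and related lipids, and drives the formation of fat cells and their storage of lipid. C2C12 is a line of mouse myoblasts, precursors of skeletal muscle that leave the cell cycle, fuse into myotubes and switch on the contractile proteins under MyoD, myogenin and their partners. The comparison described here sets C2C12 cells that overexpressed PPARγ against control cells on the 5th day of differentiation and asks how the muscle and the fat cell genes differed between them.

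The PPARγ/+ cells carried the PPARγ coding sequence in the PiggyBac vector PB-IP, put into the genome by transposase, and positive clones were selected with puromycin. The control, called WT with the genotype wild type, bears the name of the same vector (PbIP in the sample titles), and what it carried is not described further. RNA of both was sequenced after 5 days of differentiation (PPARγ/+_5d and WT_5d, 3 libraries each, described in the study as biological replicates) and before it (PPARγ/+_0d and WT_0d, 3 libraries each). The culture medium listed for all groups contained serum, β-mercaptoethanol and LIF. The comparison therefore uses 6 of the 12 libraries of the series, chosen by genotype and day. The libraries before differentiation serve only to show where the difference on 5d departs from that on 0d. Since the fragments of *Pparg* come from the vector and from the gene of the cell together, its level shows the sum of both. Expression is given as FPKM, the number of fragments on a gene scaled to the length of its transcript and to the mapped fragments of the library. Of 46983 Ensembl genes in the table, 18023 reached 0.1 FPKM in 3 or more of the 12 libraries and were tested with limma on log2(FPKM + 0.1). The log2 fold changes below (PPARγ/+ minus WT) are on this scale, which draws those of low genes toward 0. A gene was called when it differed by 2-fold or more with an adjusted p-value of 0.05 or less.

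Each library of 5d held from 15557950 to 21329932 fragments on genes, and between 11523 and 11634 genes reached 1 FPKM. The WT_5d libraries did not lie equally close together. Across the 18023 genes, which are not independent replicates, WT_5d replicate 3 had an r of 0.9612 and 0.9686 with the other WT_5d libraries but of 0.9732, 0.9729 and 0.9693 with the PPARγ/+_5d libraries, and it lay nearer to every PPARγ/+_5d library than to either of its own group. WT_5d replicates 1 and 2 had an r of 0.9773 with each other. The PPARγ/+_5d libraries lay between 0.9775 and 0.9793 of each other. The median SD of a gene was 0.219 log2 units in WT_5d and 0.120 in PPARγ/+_5d, and over the muscle genes described below it was 0.962 and 0.132. The main results are therefore given with all 6 libraries and without WT_5d replicate 3.

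With all 6 libraries 28 genes were called, 17 higher in PPARγ/+_5d (0.0943% of the genes tested) and 11 lower (0.061%). Without WT_5d replicate 3 the same 28 genes were called along with many others, 215 higher (1.19%) and 508 lower (2.82%). Leaving out any other library lowered the counts, to 1 higher and 0 lower without WT_5d replicate 1, 6 and 2 without WT_5d replicate 2, 2 and 0 without PPARγ/+_5d replicate 1 or 2, and 6 and 0 without PPARγ/+_5d replicate 3. The split also moved with the pseudocount and the filter, to 8 higher and 0 lower with a pseudocount of 1, 35 and 36 with one of 0.01, and 16 and 3 with a filter at 1 FPKM. At the thresholds the study used, a difference of 2-fold or more with an unadjusted p-value of 0.05 or less, 279 genes were higher (1.55%) and 327 lower (1.81%). The groups did not overlap at 1842 genes higher in every PPARγ/+_5d library (10.2%) and 1497 lower in every one (8.31%).

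**Figure D1:**
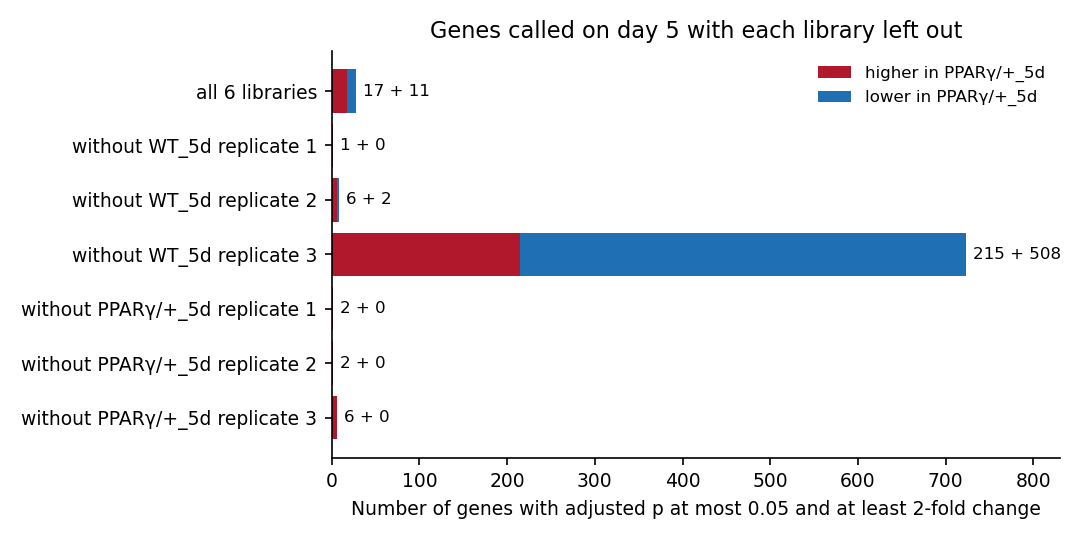
Number of genes called higher and lower in PPARγ/+_5d than in WT_5d (2-fold or more, adjusted p-value of 0.05 or less) with all 6 libraries and with each library left out in turn. Without WT_5d replicate 3 there were 215 higher and 508 lower, and without any other library no more than 6 higher and 2 lower.

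*Pparg* itself (ENSMUSG00000000440, chromosome 6 of GRCm38, 115360951 to 115490399) was higher in every PPARγ/+_5d library. Its FPKM was 3.12, 3.53 and 4.59 in WT_5d replicates 1, 2 and 3 and 40.1, 44.1 and 92.7 in those of PPARγ/+_5d. The groups lay far apart, with PPARγ/+_5d replicate 3 the highest library. The log2 fold change was 3.85 (standard error 0.34, adjusted p = 0.0379), and 4.003 without WT_5d replicate 3 (adjusted p = 0.0116). An exact permutation test over the 6 libraries gave p = 0.1, two-sided, the smallest that 3 against 3 allow. The adjusted p-value was above 0.05 without WT_5d replicate 1 or 2 or PPARγ/+_5d replicate 1 or 2, where the log2 fold change was 3.73, 3.82, 4.07 and 4.01. On 0d, in other libraries, it was 2.57 (adjusted p = 0.0115), and the change of the difference between the days was not called (1.28, adjusted p = 0.252).

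None of the receptors and coregulators that PPARγ works with was called. Of 14 listed with it, 12 were tested and *Pparg* alone passed, also at the unadjusted threshold and without WT_5d replicate 3. *Rxra*, the main retinoid X receptor partner, had 11.8, 13.6 and 17.0 FPKM in WT_5d and 16.5, 16.2 and 15.7 in PPARγ/+_5d. These ranges overlapped (log2 fold change 0.21, adjusted p = 0.557). *Ppard*, the ubiquitous relative of PPARγ, had a log2 fold change of 0.18 (adjusted p = 0.324), while *Ppara*, the receptor of the liver, had at most 0.133 FPKM in any library. *Rxrg* and *Prdm16* had no fragment in any of the 6 libraries.

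*Adipoq*, *Fabp4*, *Trarg1* and *Cyp4b1*, genes of fat cells or of fatty acid metabolism that were all called higher, had at most 0.0399 FPKM in any WT_5d library and were present in PPARγ/+_5d. *Adipoq* (ENSMUSG00000022878, chromosome 16, 23146536 to 23158028), the fat cell hormone adiponectin, had 1, 0 and 0 fragments in WT_5d and 230, 376 and 1040 in PPARγ/+_5d, or 0.0284, 0 and 0 against 8.03, 12.7 and 40.5 FPKM. All PPARγ/+_5d libraries were higher, replicate 3 most. The ratio was 1828 with a 95% counting interval from 327.6 to 72240 that covers counting error only, and the log2 fold change 7.22 (adjusted p = 0.0378). *Fabp4* (ENSMUSG00000062515, chromosome 3, 10204088 to 10208576), the fatty acid carrier of adipocytes, had 0.00875, 0.0231 and 0.0293 FPKM in WT_5d against 4.12, 4.86 and 10.3. Its log2 fold change was 5.65 (standard error 0.36, adjusted p = 0.0166), again with no overlap. *Trarg1*, a regulator of the glucose transporter of fat cells, stood at 0.0357, 0.0157 and 0.0399 FPKM in WT_5d and at 0.876, 1.15 and 2.10 in PPARγ/+_5d (log2 fold change 3.42, adjusted p = 0.0396). *Cyp4b1*, a cytochrome P450 that oxidises fatty acids, had 3 fragments over WT_5d and 79 over PPARγ/+_5d, a ratio of 29.2 with a counting interval from 9.65 to 144.8. *Cyp4b1* passed the filter only through the PPARγ/+_5d libraries, where it is high, so its call is not independent of the filter. WT_5d replicate 3 lay with its own group for all of these. With a pseudocount of 1 none of the 4 genes was called (adjusted p = 0.0871 for *Adipoq*, 0.0654 for *Fabp4*, 0.115 for *Trarg1* and 0.0854 for *Cyp4b1*). Without WT_5d replicate 1 or 2 or PPARγ/+_5d replicate 1 or 2 their adjusted p-values were between 0.0688 and 0.177, and without PPARγ/+_5d replicate 3 *Adipoq* and *Fabp4* were called while *Trarg1* and *Cyp4b1* were not.

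**Figure D2:**
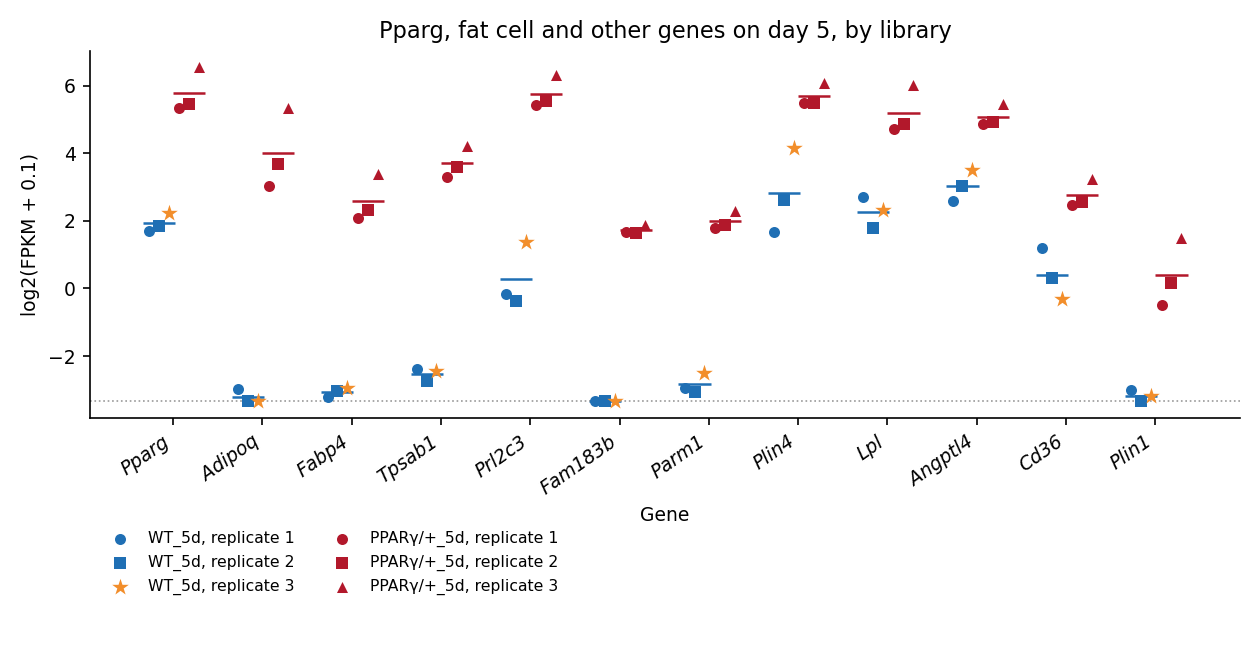
log2(FPKM + 0.1) of 12 genes higher in PPARγ/+_5d in each library of 5d, with short bars at the group means and a dotted line at the value of 0 FPKM. WT_5d replicate 3 is drawn as a star, and it lies below every PPARγ/+_5d library in each of the 12 genes.

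The list of PPARγ targets and lipid storage genes held 47 genes, of which 38 were tested. *Adipoq*, *Fabp4* and *Cyp4b1* were called, all higher, and at the unadjusted threshold 15 were higher and 0 lower, where 1.55% and 1.81% of all genes were. Of the 38, 30 had a positive log2 fold change, and 20 were higher in every PPARγ/+_5d library than in any of WT_5d while 0 were lower in every one, against 10.2% and 8.31% of all genes. The median of the list was 0.43, against 0.024 for all genes tested. Without WT_5d replicate 3 it was 0.61 and 13 genes were called higher and 2 lower, against 1.19% and 2.82% of all genes. *Slc2a4*, the insulin-responsive glucose transporter, and *Fgf21*, a hormone also made by muscle, were the lower ones. Both of them had a low WT_5d replicate 3, *Fgf21* with 13.9, 9.64 and 1.89 FPKM in WT_5d and 2.18, 3.0004 and 3.12 in PPARγ/+_5d.

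Several lipid genes, picked after their values were seen, were not called with all 6 libraries and were called without WT_5d replicate 3, although no library overlapped. *Plin4*, a coat protein of lipid droplets (ENSMUSG00000002831), had 3.10, 5.97 and 17.7 FPKM in WT_5d and 44.9, 44.9 and 67.8 in PPARγ/+_5d. WT_5d replicate 3 was the highest of its group and still below every PPARγ/+_5d library. The log2 fold change was 2.88 (adjusted p = 0.164), and 3.55 without that library (adjusted p = 0.011). *Lpl*, the lipase that frees fatty acids from circulating lipid, had 6.39, 3.38 and 4.91 FPKM against 26.1, 28.8 and 65.2 (log2 fold change 2.92, adjusted p = 0.0798, and 2.95 with 0.0347 without the library). *Angptl4*, an inhibitor of that lipase, had 5.96, 8.06 and 11.1 FPKM against 28.9, 30.3 and 43.9 (2.04, adjusted p = 0.0719, and 2.27 with 0.0126). *Cd36*, a fatty acid transporter, differed by 2.35 (adjusted p = 0.12, and 0.0391 without the library), the droplet protein *Plin1* by 3.56 (0.082 and 0.0361) and its relative *Plin2* by 1.23 (0.142 and 0.0146). *Lipe* and *Mgll*, lipases that break down stored lipid, had log2 fold changes of 1.64 and 1.52. *Cidec*, which lets lipid droplets merge, had 0 fragments in WT_5d and 7, 15 and 46 in PPARγ/+_5d, at least 25.2-fold higher by the floor of 3 fragments over a group, but was called neither with nor without WT_5d replicate 3.

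Other markers of mature fat cells were at or near 0. *Lep*, the hormone leptin, had no fragment in any library, *Ucp1* of brown fat 1 fragment in WT_5d alone, and *Retn* had 0, 0 and 1 fragments in WT_5d and 1, 2 and 10 in PPARγ/+_5d. The summed FPKM of the 7 adipocyte markers lay between 0.0625 and 0.0792 in WT_5d and at 13.3, 20.1 and 67.6 in PPARγ/+_5d, where *Adipoq* and *Cfd* put replicate 3 ahead. *Cfd*, the fat cell protease adipsin, had 0, 1 and 0 fragments in WT_5d and 6, 22 and 211 in PPARγ/+_5d. In bulk RNA a larger number of such cells and more RNA per cell cannot be told apart.

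Of 17 listed regulators of fat cell formation 14 were tested, 13 of them with a positive log2 fold change, and 0 were called. At the unadjusted threshold 1 was higher and 0 were lower, against 1.55% and 1.81% of all genes. *Ebf1*, an early regulator of the lineage, had 3.51, 4.98 and 6.85 FPKM in WT_5d and 11.5, 11.1 and 12.2 in PPARγ/+_5d, without overlap (log2 fold change 1.22, adjusted p = 0.131, and 1.45 with 0.0141 without WT_5d replicate 3). *Cebpa*, the usual partner of PPARγ in adipocytes, had 8.36, 11.5 and 14.04 FPKM against 17.2, 17.6 and 22.6 (0.78, adjusted p = 0.239) and stayed short of 2-fold in both fits. *Klf5* was lower in every PPARγ/+_5d library (−0.90, adjusted p = 0.196) and was called lower without WT_5d replicate 3 (−1.14, adjusted p = 0.0107). *Srebf1* had a log2 fold change of 0.56 and *Klf4* of 0.08, neither called.

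The remaining genes called higher have other roles. *Tpsab1* (ENSMUSG00000024173, chromosome 17, 25343245 to 25345562), a tryptase of mast cells, had 0.0937, 0.0495 and 0.0839 FPKM in WT_5d and 9.70, 11.9 and 18.4 in PPARγ/+_5d (log2 fold change 6.21, standard error 0.26, adjusted p = 0.00377). *Parm1* (ENSMUSG00000034981, chromosome 5, 91517615 to 91626894), a mucin-like protein of the membrane, had 0.0310, 0.0205 and 0.0780 FPKM against 3.35, 3.61 and 4.78 (4.81, standard error 0.23, adjusted p = 0.00529). *Fam183b* had no fragment in WT_5d and 36, 37 and 38 in PPARγ/+_5d, at least 41.1-fold higher. In each of the 3 genes the libraries of a group lay close together and the groups far apart. *Prl2c3*, a prolactin relative, had 0.785, 0.671 and 2.48 FPKM in WT_5d and 42.7, 46.2 and 79.8 in PPARγ/+_5d (5.49, adjusted p = 0.038). Its paralog *Prl2c2* had 0.517, 1.30 and 5.10 against 29.3, 30.4 and 45.3 (4.38, adjusted p = 0.117), and since the copies are nearly identical, how the counting split their fragments is uncertain. *Gzme*, a granzyme with close paralogs of its own, had 5, 2 and 0 fragments against 51, 72 and 79 (4.28, adjusted p = 0.0499).

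*Acsbg1*, which activates long-chain fatty acids, had 0.458, 0.489 and 0.329 FPKM in WT_5d and 2.64, 2.88 and 4.09 in PPARγ/+_5d (log2 fold change 2.64, adjusted p = 0.0378). On 0d it had been lower in PPARγ/+ cells, with a mean of 3.04 FPKM against 5.51 (−0.84, adjusted p = 0.0139). *Lrrc75b* had 1.41, 1.31 and 1.54 FPKM against 4.77, 5.30 and 6.62 (1.89, adjusted p = 0.0358). *Sprr1b*, *Skint10*, *Tmprss11f* and *Adgrf5* stayed under 1 FPKM in every library of 5d, with log2 fold changes of 2.51, 2.01, 1.89 and 1.71. *Gm24584* was called on 5 fragments in all. *Skint10*, *Gm24584* and *Cyp4b1* passed the filter only through the PPARγ/+_5d libraries, where they are high, so their calls are not independent of the filter. *Fam183b* was called with any library left out. *Tpsab1* was not called without WT_5d replicate 1 (adjusted p = 0.0564) or PPARγ/+_5d replicate 2 (0.0583), and *Parm1* not without either of these (0.0606 and 0.0644) or PPARγ/+_5d replicate 1 (0.0877). *Acsbg1*, *Lrrc75b*, *Prl2c3* and *Gzme* lost the call when any library other than WT_5d replicate 3 was left out (adjusted p from 0.0823 to 0.225). *Gzme* also lost it with a pseudocount of 0.01 (adjusted p = 0.162) and with median-ratio scaling (0.067).

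Of the 11 genes called lower, *Sik1* and *Tmem86a* had more than a handful of fragments. *Sik1* (ENSMUSG00000024042, chromosome 17, 31844250 to 31855804), a salt-inducible kinase, had 18.1, 15.9 and 14.5 FPKM in WT_5d and 7.14, 8.09 and 7.97 in PPARγ/+_5d (log2 fold change −1.05, standard error 0.10, adjusted p = 0.0394). *Tmem86a* (ENSMUSG00000010307, chromosome 7, 47050601 to 47054777), an enzyme that breaks down lysoplasmalogens, had 10.1, 10.8 and 11.2 FPKM against 5.55, 5.38 and 4.63 (−1.04, standard error 0.09, adjusted p = 0.0379). In both, every WT_5d library including replicate 3 was above every PPARγ/+_5d library. Both calls were lost when any library other than WT_5d replicate 3 was left out (adjusted p from 0.107 to 0.177 for *Sik1* and from 0.107 to 0.151 for *Tmem86a*) and with a pseudocount of 1, where *Sik1* had an adjusted p of 0.0543 and *Tmem86a* fell short of 2-fold (−0.92). With median-ratio scaling *Sik1* had an adjusted p of 0.0673. The other 9 were short RNAs or a pseudogene with no more than 2 fragments in any library of 5d and 0 in PPARγ/+_5d. *Gm23468*, for example, had 6 fragments over WT_5d and 0 over PPARγ/+_5d, at least 1.8-fold by the floor of 3 fragments. *Gm24613*, *Gm13588*, *Mir3089* and *Gm22951* passed the filter only through the WT_5d libraries, where they are high, so their calls are not independent of the filter. Of all genes tested 11.97% had at most 5 fragments in every library of 5d.

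Most muscle genes had the opposite direction and a wide spread in WT_5d, with replicates 1 and 2 high and replicate 3 nearer to PPARγ/+_5d. The 8 lists of muscle genes held 160 genes, of which 141 were tested, 128 of them with a negative log2 fold change and 13 with a positive one. None was called with all 6 libraries. At the unadjusted threshold 43 were lower and 1 was higher, against 1.81% and 1.55% of all genes. Of the 141, 54 were lower in every PPARγ/+_5d library than in any of WT_5d and 4 higher, against 8.31% and 10.2% of all genes. Without WT_5d replicate 3, 93 were called lower and 1 higher, of 508 and 215 such genes among all tested (2.82% and 1.19%). The median went from −0.90 to −1.46 without that library, against 0.024 and 0.049 for all genes. WT_5d replicate 3 was below both other WT_5d libraries in 124 of the 141 genes (87.94%) against 30.59% of all genes, and nearer to the mean of PPARγ/+_5d than to that of WT_5d replicates 1 and 2 in 124 (87.94%) against 65.99%. It was within the range of PPARγ/+_5d in 28 of the 141 genes, below that range in 51 and above it in 62. The FPKM summed over the lists was 18360, 14450 and 6394 in WT_5d replicates 1, 2 and 3 and 6115, 6634 and 6597 in PPARγ/+_5d. How far the cells of WT_5d replicate 3 had fused or differentiated was not tested.

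**Figure D3:**
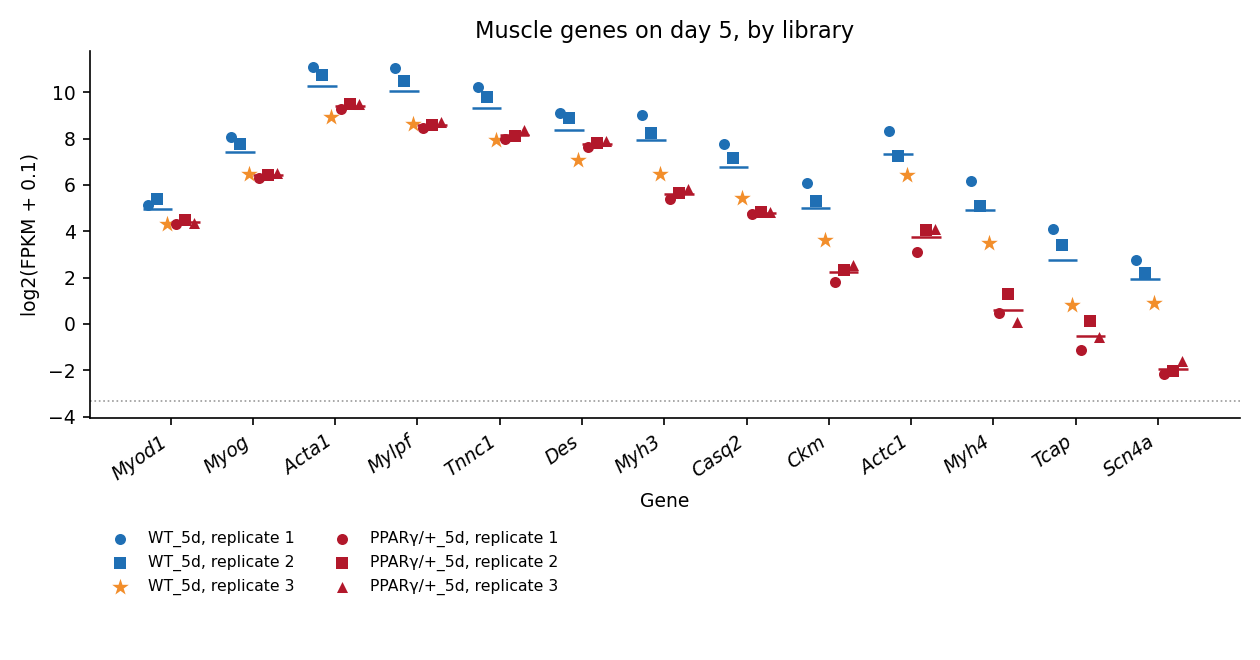
log2(FPKM + 0.1) of 13 muscle genes in each library of 5d, with short bars at the group means and a dotted line at the value of 0 FPKM. WT_5d replicate 3, the star, lies below WT_5d replicates 1 and 2 in each gene, among or under the PPARγ/+_5d libraries for Myod1, Myog, Acta1, Mylpf, Tnnc1 and Des and above them for the others.

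The factors that govern the muscle programme had a median log2 fold change nearer to 0 than its contractile products had. *Myod1* (ENSMUSG00000009471, chromosome 7, 46376474 to 46379099), which commits cells to muscle, had 34.9, 41.5 and 19.9 FPKM in WT_5d and 19.6, 22.1 and 20.4 in PPARγ/+_5d. Only WT_5d replicates 1 and 2 stood above the rest (log2 fold change −0.56, standard error 0.27, adjusted p = 0.438, exact permutation p = 0.3). It was −0.87 without WT_5d replicate 3 (adjusted p = 0.0146), short of 2-fold. *Myog* (ENSMUSG00000026459, chromosome 1, 134289989 to 134292548), which starts terminal differentiation, had 271, 215 and 90.0 FPKM against 78.8, 85.9 and 90.3. Again replicate 3 lay among the PPARγ/+_5d libraries (−1.03, standard error 0.40, adjusted p = 0.382, exact permutation p = 0.2), and without it the log2 fold change was −1.51 (adjusted p = 0.00782). *Mef2c*, a partner of both, had 3.50, 2.23 and 0.212 FPKM against 0.233, 0.246 and 0.178 (−2.12, adjusted p = 0.411, and −3.19 with 0.00736 without replicate 3). Over the 13 regulators tested the median was −0.21, and −0.19 without replicate 3, where 3 were called lower, against 2.82% of all genes.

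Among the myosins, the motors of the contractile filament, 10 of 16 tested were lower at the unadjusted threshold, against 1.81% of all genes. Without WT_5d replicate 3, 15 were called lower, against 2.82% of all genes. The medians were −2.03 and −2.57. *Myh4* (ENSMUSG00000057003), a fast heavy chain, had 70.9, 34.3 and 11.3 FPKM in WT_5d and 1.31, 2.36 and 0.948 in PPARγ/+_5d. Here WT_5d replicate 3, though the lowest of its group, stood well above PPARγ/+_5d (log2 fold change −4.30, standard error 0.70, adjusted p = 0.104, and −5.01 with 0.011 without it). *Myh3*, the embryonic heavy chain, had 527, 307 and 87.9 FPKM against 42.2, 49.7 and 56.1 (−2.30, adjusted p = 0.248, and −3.03 with 0.00901). *Mylpf*, a fast light chain and among the genes with the highest FPKM here, had 2094, 1426 and 394 against 351, 389 and 420 (−1.45, adjusted p = 0.406, and −2.16 with 0.00981), so that its replicate 3 lay inside the range of PPARγ/+_5d. Where WT_5d replicate 3 stood against PPARγ/+_5d thus differed between the myosins.

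Of 19 troponins, actins and tropomyosins tested, which form and gate the thin filament, 6 were lower at the unadjusted threshold, against 1.81% of all genes. Without WT_5d replicate 3, 14 were called lower, against 2.82% of all genes (medians −1.17 and −1.86). *Acta1*, skeletal actin, had 2156, 1725 and 491 FPKM in WT_5d and 622, 714 and 715 in PPARγ/+_5d. WT_5d replicate 3 was the lowest of all 6 libraries (log2 fold change −0.84, adjusted p = 0.568, and −1.50 with 0.012 without it). *Tnnc1*, the calcium-binding troponin, showed the same order with 1198, 898 and 245 FPKM against 251, 280 and 331. *Actc1*, cardiac actin, was different, with 325, 151 and 85.3 FPKM against 8.55, 16.6 and 16.9 and no overlap (−3.58, adjusted p = 0.0892, and −4.04 with 0.0157). *Acta2*, smooth muscle actin and also common in fibroblasts, had a log2 fold change of −0.41 (adjusted p = 0.382).

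Z-disc, M-band and titin genes, which anchor the filaments, numbered 26 tested, 5 lower at the unadjusted threshold, against 1.81% of all genes. Without WT_5d replicate 3, 21 were called lower, against 2.82% of all genes (medians −0.97 and −1.59). *Des*, the filament protein desmin, had 558, 478 and 135 FPKM in WT_5d and 199, 224 and 239 in PPARγ/+_5d, with WT_5d replicate 3 the lowest library. *Tcap*, which caps titin, had 17.2, 10.5 and 1.67 FPKM against 0.356, 0.981 and 0.568 (log2 fold change −3.31, adjusted p = 0.233, and −4.29 with 0.012 without replicate 3). In all 26 genes WT_5d replicate 3 lay below WT_5d replicates 1 and 2 and nearer to PPARγ/+_5d.

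Genes that couple excitation to contraction numbered 24, of which 11 were lower at the unadjusted threshold, against 1.81% of all genes. Without WT_5d replicate 3, 18 were called lower, against 2.82% of all genes (medians −1.05 and −1.53). *Scn4a* (ENSMUSG00000001027), the sodium channel of skeletal muscle, had 6.64, 4.56 and 1.75 FPKM in WT_5d and 0.123, 0.145 and 0.229 in PPARγ/+_5d, with replicate 3 well clear of PPARγ/+_5d (log2 fold change −3.88, standard error 0.49, adjusted p = 0.0694, and −4.42 with 0.00604). *Casq2*, a calcium store protein, had 218, 141 and 42.8 FPKM against 26.5, 28.4 and 28.8, and its fast muscle relative *Casq1* 74.8, 42.8 and 10.8 against 2.67, 4.12 and 4.33. *Dhrs7c*, a reductase of the same membrane system that belongs to the genes farthest apart without replicate 3, had 128, 48 and 29 fragments in WT_5d and 1 in all of PPARγ/+_5d, a ratio of 184.6 with a counting interval from 32.8 to 7326.

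The lists for the synapse, fusion and energy supply of muscle had 3, 2 and 5 genes lower at the unadjusted threshold among 11, 14 and 19 tested. Without WT_5d replicate 3, 6, 4 and 13 were called lower. Of all genes 1.81% and 2.82% were lower by these rules. *Chrng*, the embryonic subunit of the acetylcholine receptor, had 118, 102 and 22.8 FPKM in WT_5d and 20.7, 23.1 and 24.99 in PPARγ/+_5d. *Mymk*, the membrane protein that lets myoblasts fuse, had 336, 321 and 92.6 FPKM against 109, 119 and 130, with WT_5d replicate 3 below every other library (without it, log2 fold change −1.46, adjusted p = 0.00604). *Ckm* (ENSMUSG00000030399), the creatine kinase of muscle and picked after its values were seen, had 67.8, 39.2 and 12.04 FPKM against 3.44, 4.86 and 5.71. The groups of *Ckm* did not overlap (−2.77, adjusted p = 0.18, and −3.47 with 0.00999). *Phkg1*, a kinase of glycogen breakdown, was the 1 muscle gene higher under both of these rules, with less than 1 FPKM in every library (1.02, adjusted p = 0.132, and 1.12 with 0.0352).

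**Figure D4:**
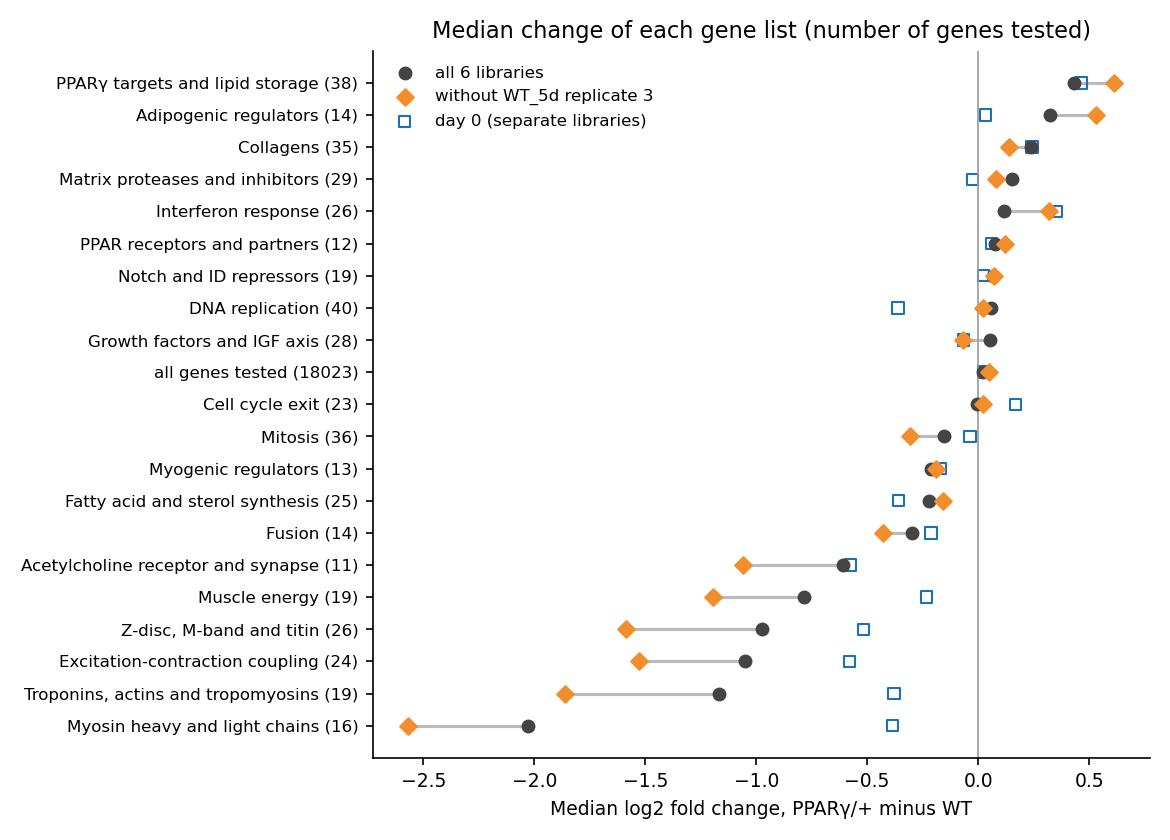
Median log2 fold change (PPARγ/+ minus WT) of each gene list on 5d with all libraries, on 5d without WT_5d replicate 3, and on 0d, with the number of genes tested beside each name. The 8 muscle lists lie left of 0, the myosins farthest (−2.03, and −2.57 without WT_5d replicate 3), and lipid storage lies right of 0 at 0.43, 0.61 and 0.47.

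The promoters of muscle genes are known for E-boxes, the sites of MyoD and myogenin, so the form CAGCTG, which reads the same on both strands, was counted in RefSeq windows of GRCm38.p6 that run from 250 bases before to 50 after a transcript start. It was in 46 of 131 windows of the muscle lists (35.11%), in 118 of 405 of the genes called lower without WT_5d replicate 3 (29.14%) and in 2283 of 14209 of all genes tested (16.07%). It was also in 36 of 152 windows of the genes called higher without WT_5d replicate 3 (23.68%) and in 10 of 37 of the lipid list (27.03%), while of the 15 windows of genes called higher with all 6 libraries it was in 2 (13.33%). AGGTCA, the core site of nuclear receptors, searched on both strands, was in 3 of those 15 windows (20%) and 1832 of all 14209 (12.89%). It was in 21.05% of the windows of genes called higher without WT_5d replicate 3, in 16.79% of those called lower without it, in 21.62% of the lipid list and in 17.56% of the muscle lists. A pair of such sites 1 base apart (AGGTCANAGGTCA), the usual PPARγ element, was in 0 of the 15 and 3 of all. Promoter windows were found for 102 of the 141 muscle genes and 12 of the 17 genes called higher. A match describes letters and is not a binding site. The windows of 3 muscle genes with no overlap between the groups, taken among those that hold CAGCTG, are printed below. They run from 5′ to 3′ on the strand of the gene, with CAGCTG in capitals. The positions are chr11:67237562-67237861 (plus strand) for *Myh4*, chr7:19410844-19411143 (plus) for *Ckm* and chr1:172219846-172220145 (minus) for *Casq1*.
Myh4: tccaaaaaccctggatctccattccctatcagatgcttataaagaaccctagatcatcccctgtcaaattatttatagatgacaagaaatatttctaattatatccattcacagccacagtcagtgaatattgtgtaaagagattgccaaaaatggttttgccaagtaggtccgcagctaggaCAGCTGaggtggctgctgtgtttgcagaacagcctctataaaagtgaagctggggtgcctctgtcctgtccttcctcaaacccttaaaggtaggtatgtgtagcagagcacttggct
Ckm: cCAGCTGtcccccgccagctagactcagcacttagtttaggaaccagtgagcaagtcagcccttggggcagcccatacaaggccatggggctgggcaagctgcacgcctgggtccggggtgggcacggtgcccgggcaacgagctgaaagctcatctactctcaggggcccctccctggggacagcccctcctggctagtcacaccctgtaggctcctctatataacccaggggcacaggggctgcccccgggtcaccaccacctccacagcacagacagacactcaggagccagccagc
Casq1: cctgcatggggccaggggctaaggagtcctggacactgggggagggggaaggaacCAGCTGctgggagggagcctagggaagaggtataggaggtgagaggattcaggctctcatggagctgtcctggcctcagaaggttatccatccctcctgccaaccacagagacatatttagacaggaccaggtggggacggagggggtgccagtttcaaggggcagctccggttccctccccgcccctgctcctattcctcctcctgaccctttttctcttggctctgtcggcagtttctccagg
Each holds 1 such E-box, near the start in *Myh4* and toward the far end of the window in *Ckm* and *Casq1*. The FPKM of the 3 genes, given above, was highest in WT_5d replicate 1 and above PPARγ/+_5d in every WT_5d library. The window of *Scn4a*, a muscle gene whose groups did not overlap either, holds no CAGCTG, and neither does that of *Myog*.

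Genes of cell division were not called. None of 40 DNA replication genes and 36 mitosis genes was called by limma with all 6 libraries, at the unadjusted threshold or without WT_5d replicate 3 (medians 0.057 and −0.15). *Cdk1*, the mitotic kinase, had 7.08, 6.59 and 6.53 FPKM in WT_5d and 6.35, 7.195 and 7.55 in PPARγ/+_5d. Of 23 genes of cell cycle exit, *Cdkn1a* and *Ccnd3* were lower at the unadjusted threshold, where 1.81% of all genes were. *Cdkn1a*, the p21 inhibitor that MyoD induces, had 481, 419 and 189 FPKM against 164, 174 and 162, without overlap (log2 fold change −1.01, adjusted p = 0.335, and −1.43 with 0.00604 without WT_5d replicate 3). In 34 of the 36 mitosis genes WT_5d replicate 3 was below both other WT_5d libraries.

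Of 35 collagens 0 were called with all 6 libraries. At the unadjusted threshold 2 were higher and 1 lower, against 1.55% and 1.81% of all genes. Without WT_5d replicate 3, 3 were called lower, against 2.82% of all genes. The chain *Col1a1* had 151, 125 and 34.8 FPKM in WT_5d and 61.0, 59.8 and 62.7 in PPARγ/+_5d, so that the PPARγ/+_5d libraries lay between the WT_5d ones (log2 fold change −0.51, adjusted p = 0.71, and −1.16 with 0.00736). The 29 matrix proteases and inhibitors had 3 higher and 0 lower at the unadjusted threshold (1.55% and 1.81% of all genes). Without the library 0 were called higher and 2 lower (1.19% and 2.82% of all genes). Of 28 growth factors, *Igfbp3*, a carrier of insulin-like growth factors, had 6.26, 19.1 and 9.36 FPKM against 72.1, 65.2 and 72.9 (2.74, standard error 0.39, adjusted p = 0.0798, and 2.67 with 0.0367), and *Igf2* 40.4, 26.8 and 7.99 against 6.05, 6.92 and 9.20 (−1.49, adjusted p = 0.386, and −2.16 with 0.0161). Among 19 Notch and ID repressors, *Id3*, which binds and blocks the partners of MyoD, had 19.9, 29.2 and 74.9 FPKM against 56.9, 60.2 and 75.6, with WT_5d replicate 3 among PPARγ/+_5d (0.85, adjusted p = 0.492, and 1.40 with 0.0267). None of 26 interferon genes was called, under the unadjusted rule included. Of 25 genes of fatty acid and sterol synthesis 1 was higher under the unadjusted rule, against 1.55% of all genes.

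Markers of other cell types bear on what the libraries held. The FPKM summed over 8 markers of skeletal muscle was 4248, 3257 and 962 in WT_5d and 1037, 1188 and 1220 in PPARγ/+_5d. None of these markers was called with all 6 libraries. At the unadjusted threshold 4 were lower, against 1.81% of all genes. Without WT_5d replicate 3, 7 were called lower, against 2.82% of all genes. The sum of 7 fibroblast markers ranged from 542 to 679 in WT_5d and from 715 to 879 in PPARγ/+_5d, without overlap and with none called with all 6 libraries. *Dcn*, the proteoglycan decorin, had 306, 363 and 219 FPKM in WT_5d and 430, 476 and 532 in PPARγ/+_5d. *Ly6a* overlapped, with 178, 170 and 268 FPKM against 201, 215 and 261. Of the 6 markers tested, 5 had a positive log2 fold change and 2 were higher in every PPARγ/+_5d library, against 10.2% of all genes. *Col1a1*, given above, had a negative one and was called lower without WT_5d replicate 3. The sum of 7 bone and cartilage markers was 15.8, 18.3 and 26.2 in WT_5d and 27.2, 27.1 and 32.2 in PPARγ/+_5d, again without overlap. *Sox9*, the regulator of cartilage, made up most of it with 10.3, 13.1 and 19.8 FPKM against 19.9, 20.9 and 25.6 (log2 fold change 0.66, adjusted p = 0.362, and 0.92 with 0.0342 without WT_5d replicate 3), short of 2-fold in both fits. The sum of 5 epithelial markers was low and followed the order of the muscle genes, with 4.01, 2.76 and 0.484 in WT_5d and 0.911, 0.982 and 1.37 in PPARγ/+_5d. Most of it was the keratin *Krt19* (3.70, 2.51 and 0.402 FPKM against 0.858, 0.877 and 1.22), which was not called with all 6 libraries (−0.67, adjusted p = 0.722) and was called lower without WT_5d replicate 3 (−1.56, adjusted p = 0.0284). The sums for blood lay between 2.85 and 4.43 and those for endothelium between 0.170 and 0.282 over all 6 libraries. The part that other cells had in the results was not tested.

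WT_5d replicate 3 did not lie between the other libraries at every gene. Of the 508 genes called lower without it, its FPKM was within or past the range of PPARγ/+_5d in 236 (46.46%) and nearer to PPARγ/+_5d in 414 (81.5%). Of the 215 called higher it was within or past that range in 43 (20%) and nearer in 105 (48.84%). Across all genes tested the shares were 67.48% and 65.99%. PPARγ/+_5d replicates 1, 2 and 3 were at least 2-fold above the other 5 libraries in 9, 9 and 32 genes and below them in 22, 24 and 22. WT_5d replicate 3 was at least 2-fold above the other 5 libraries in 31 genes and below them in 58. The counts were 40 and 71 for WT_5d replicate 1 and 13 and 29 for WT_5d replicate 2. Genes at which WT_5d replicate 3 stood above, picked after their values were seen, were the early response genes *Nr4a1* (5.33, 12.1 and 71.3 FPKM in WT_5d, at most 12.5 in PPARγ/+_5d) and *Fos* (7.81, 15.3 and 52.7, at most 22.5) and the acute phase gene *Saa3* (0.222, 2.15 and 19.2, at most 1.84). Among those below was *Lrrn1*, a membrane protein with leucine-rich repeats (10.3, 7.24 and 0.166 FPKM, and at least 1.11 in PPARγ/+_5d). Its depth of 19094514 fragments on genes and its mitochondrial share of 3.72%, the lowest of 5d, where the others had 4.15% to 4.51%, were measured beside this, and their part in it was not tested.

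On 0d, in libraries of their own, 65 genes were called higher in PPARγ/+ cells (0.361%) and 222 lower (1.23%). Of the 17 genes called higher on 5d, 8 were also called higher on 0d and 14 had the same sign, among them *Pparg*, *Adipoq* (log2 fold change 3.94) and *Fabp4* (3.91). Of the 11 called lower on 5d 0 were called on 0d and 4 had the same sign. Without WT_5d replicate 3, 170 of the 215 higher (79.07%) and 396 of the 508 lower (77.95%) had the same sign on 0d, where 53.42% of all genes were positive and 46.58% negative. A fit over all 12 libraries tested whether the difference was the same on both days (interaction, adjusted p-value of 0.05 or less). It called 137 genes (0.76%), 10 of the 17 higher and 1 of the 11 lower among them. The genes called on 5d were chosen by a difference that the interaction uses again, so these shares are not independent of that choice.

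**Figure D5:**
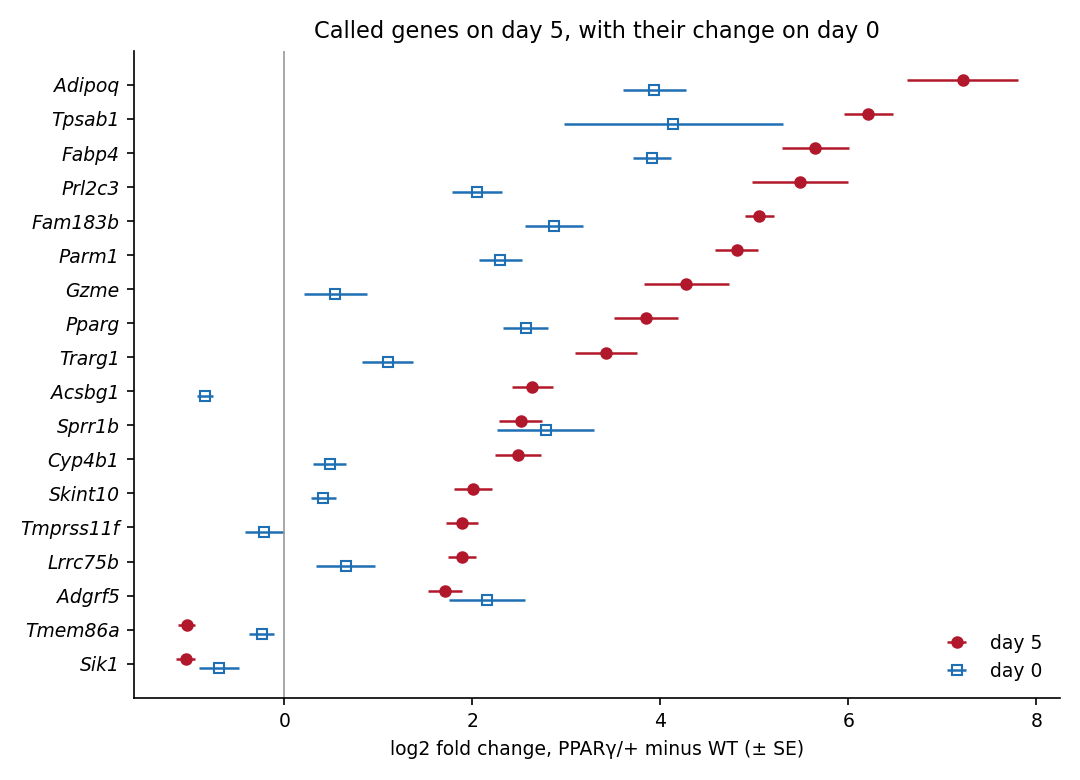
Log2 fold change (PPARγ/+ minus WT, with its standard error) on 5d (filled points) and on 0d (open squares) of the genes called on 5d, without the RNAs of at most 2 fragments per library. Adipoq (3.94 on 0d and 7.22 on 5d) and Fabp4 (3.91 and 5.65) lie right of 0 on both days, and Acsbg1 (−0.84 and 2.64) on opposite sides.

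The study described separate regulation modes for a set of genes, with opposite changes during differentiation in WT and PPARγ/+ cells. They were chosen on these samples and so are no independent evidence. The set held 11 genes, of which 10 were tested, and *Gzme* alone was called on 5d. A difference on 5d alone does not test such a change between the days. At the unadjusted threshold *Gzme*, *L1cam*, *Mmp10* and *Clca3b* were higher and *Car12* was lower, against 1.55% and 1.81% of all genes. *L1cam*, an adhesion protein, had 3.03, 2.54 and 0.896 FPKM in WT_5d and 5.32, 4.81 and 7.49 in PPARγ/+_5d (log2 fold change 1.54, adjusted p = 0.277, and 1.03 with 0.0511 without WT_5d replicate 3). *Igfbp2* had 29.4, 30.02 and 30.2 FPKM against 21.4, 24.95 and 18.04, without overlap and short of 2-fold. *Mmp10*, *Clca3b*, *Car12*, *Stmn4*, *Tenm4*, *Creb5* and *Slc14a1* had at most 1.38 FPKM in any library of 5d, and *Fndc9* was under the filter. The interaction tests whether the change between the days differed between the cell types, and it uses again the changes that chose the set. It was called for *Gzme* (3.73), *Mmp10* (3.45), *Stmn4* (3.30), *L1cam* (2.77), *Slc14a1* (2.62), *Igfbp2* (2.61), *Clca3b* (2.25) and *Creb5* (2.03). It was not called for *Tenm4* (1.32) or *Car12* (−1.56). Of all genes tested 0.76% were called in the interaction. The study also reported qRT-PCR for most of the set.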

How the data were processed

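RNA of C2C12 cells (TruSeq kit, which does not mark the strand, paired-end) was analysed in 12 libraries, 3 in each group (WT and PPARγ/+, each on 0d and on 5d), grouped by their sample titles. The methods of the study name Trim Galore, STAR, HTSeq and GRCm38, while the submitters' processing notes list STAR and mm9. Since the fragments of 21224 of 27138 expressed genes came out whole (within 0.01) with annotated GRCm38 lengths, coordinates are given on GRCm38. The authors deposited FPKM values, with replicates kept apart, and a table of log2 values that holds log2(FPKM + 1) of the same FPKM to within 5.3e-14 and was not used further. FPKM are not counts, so no count test was run as the main result. Fragments were recovered from FPKM, gene length and mapped read pairs (for 5914 genes the length was inferred) and served for floors (3 fragments over a group) and 95% counting intervals, which cover counting error only.

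Genes with at least 0.1 FPKM in at least 3 of 12 libraries (18023) were tested with limma 3.58.1 in R 4.3.3 (moderated test with trend, Benjamini-Hochberg adjustment over all of them) on log2(FPKM + 0.1), PPARγ/+_5d against WT_5d with only these 6 libraries in the fit, likewise on 0d, and the interaction over all 12. *Pparg*, *Myod1* and *Myog* were also compared by two-sided exact permutation tests. The script was tested on simulated data. Genes were named by a rule: *Pparg*, *Myod1* and *Myog*, the 12 largest called changes in each direction that reached 1 FPKM without overlap, the 6 in each direction without WT_5d replicate 3, per list up to 4 called members or else the 2 with the highest FPKM, the 6 muscle genes with the highest FPKM, the genes of the regulation modes and the largest interactions. Other genes were named to show the level of a list and were chosen after their values were seen. The members and lists were chosen with earlier results of these data known, and the lists were written from general knowledge.

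Replicate numbers were checked for pairing. Same-numbered libraries of the 2 cell types deviated together by an r of −0.045 to 0.018 on 5d, so the numbers do not pair them. Alternatives were another pseudocount (1 or 0.01), no filter, a filter at 1 FPKM, median-ratio scaling, quantile normalization, array weights, all 12 libraries in one fit, a replicate block and each library left out. Promoter windows are those of RefSeq for GRCm38.p6.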

Additional observations from a re-analysis of the deposited data

Results flagged for a closer look

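The difference between PPARγ/+ and WT cells was not the same on 5d and 0d for 11 of the 28 genes called on 5d. This was tested by the interaction in a limma fit of the 12 libraries (adjusted p-value of 0.05 or less). The same test called 0.76% of all genes tested. The 28 genes were chosen by their difference on 5d, which the interaction uses again. A raised share among them follows in part from that choice. The values are the log2 fold change on 5d minus that on 0d. Among genes with many fragments it was 3.48 for *Acsbg1* (adjusted p = 0.000258), whose difference had the opposite sign on 0d, 3.43 for *Prl2c3* (adjusted p = 0.028), 2.51 for *Parm1* (adjusted p = 0.011) and 2.32 for *Trarg1* (adjusted p = 0.0498). It was 3.73 for *Gzme* (adjusted p = 0.018), 2.18 for *Fam183b* (adjusted p = 0.0263), 2.10 for *Tmprss11f* (adjusted p = 0.011), 2.001 for *Cyp4b1* (adjusted p = 0.031) and 1.59 for *Skint10* (adjusted p = 0.0498), all of them with fewer than 100 fragments in any library of 5d. *Gm24584* (3.07, adjusted p = 0.0101) and *Gm23468* (−5.21, adjusted p = 0.0143) had at most 2 fragments in any library of 5d. *Gm24584*, *Skint10* and *Cyp4b1* passed the filter only through the PPARγ/+_5d libraries, where they are high. Their interaction calls are therefore not independent of the filter. *Pparg* (1.28), *Adipoq* (3.28, adjusted p = 0.0654) and *Fabp4* (1.74, adjusted p = 0.106) were higher in PPARγ/+ cells on both days, and their interaction was not called.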

How the results depend on the processing

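The number of genes called on 5d (28) depended on WT_5d replicate 3 more than on any other library, and ranged from 1 to 723 with each library left out. It was 8 with a pseudocount of 1, 71 with 0.01 and 502 with array weights. These weights were 0.492, 1.95 and 0.271 for WT_5d replicates 1, 2 and 3, and 1.25, 2.54 and 1.21 for those of PPARγ/+_5d. The number was 199 with all 12 libraries in one fit, where the spread of the other groups enters. Without a filter it was 36, with a filter at 1 FPKM 19, with median-ratio scaling 25 and with quantile normalization 22. A filter at 10 fragments, added after the data were seen, gave 59. Without WT_5d replicate 3 it was 358 and 711 with a pseudocount of 1 and 0.01, 515 and 784 with filters at 1 FPKM and 10 fragments and 741 with median-ratio scaling, all added likewise. At the unadjusted threshold (606) it was 180 with a pseudocount of 1, 280 with the filter at 1 FPKM, 997 with array weights and 490 to 1071 with each library left out. On 0d (287) it was 115 with a pseudocount of 1, 107 without a filter and 55 to 137 with each library left out. Interaction calls (137) were 2070 with array weights and 42 to 527 with each library left out. The replicate block, by numbers that do not pair the libraries, gave 0 calls on 5d (574 at the unadjusted threshold), 0 on 0d and 61 interaction calls, and left *Pparg* at 3.85 with an adjusted p-value above 0.05. With each library left out *Pparg* ranged from 3.47 to 4.07, *Myod1* from −0.87 to −0.34 and *Myog* from −1.51 to −0.71, and none of the named genes changed sign where it was called. The 9 genes called lower on at most 2 fragments in any library of 5d lie at or near the floor of 3 fragments over a group. The causes of these shifts were not tested.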

Other observations

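Genes of fatty acid and sterol synthesis are described here after their values were seen, and none of them was called with all 6 libraries or without WT_5d replicate 3. Of 25 genes of fatty acid and sterol synthesis 12 were lower in every PPARγ/+_5d library than in any of WT_5d and 5 were higher, against 8.31% and 10.2% of all genes, and the median of the list was −0.22. *Fdft1*, which makes squalene, had 43.7, 45.0 and 50.8 FPKM in WT_5d and 30.9, 31.0 and 27.96 in PPARγ/+_5d (log2 fold change −0.63, adjusted p = 0.0694). WT_5d replicate 3 lay with its own group. *Cyp51* (−0.71) and *Sqle* (−0.45) had the same order of groups, neither with an adjusted p-value of 0.05 or less. The difference on 0d, in other libraries, was −0.50 for *Fdft1*, −0.35 for *Cyp51* and −0.55 for *Sqle*. The transporters and enzymes of lipid export and synthesis *Abcg1* (1.01), *Acacb* (0.92) and *Scd1* (0.38) were higher in every PPARγ/+_5d library.

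WT_5d replicate 3 stood apart from all other libraries of 5d in some single genes. *Mgp*, an inhibitor of calcification, had 432, 364 and 968 FPKM in WT_5d and 332, 388 and 385 in PPARγ/+_5d. *Fmod*, a proteoglycan that binds collagen, had 21.4, 26.5 and 4.61 FPKM in WT_5d and 29.3, 32.7 and 29.3 in PPARγ/+_5d. *Ccl8*, a chemokine, had 28.1, 49.3 and 164 FPKM against 46.1, 54.1 and 39.5. These genes were picked because that library stood apart in them.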
